A study of Mus musculus with 2 samples.

Results

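The genes described here encode the proteins of the mitochondrial ribosome. They were taken as every gene listed in the deposited files whose Entrez Gene number maps to a mouse symbol that starts with Mrpl or Mrps and a number. Of the 18090 gene IDs listed in either library, 77 protein-coding genes met this rule, 48 named for the large subunit (Mrpl) and 29 for the small subunit (Mrps). All 77 were listed in both libraries, with at least 25 reads in the immature and at least 20 in the mature one. The rule also matched 3 listed pseudogenes, which were left out of every count and median: Mrpl23-ps1 and Mrpl27-ps had 8 immature and 2 mature reads each, and Mrps36-ps2 had 0 and 2. The gene Mrpl23 had no row in either file and is not analysed here.

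The study sequenced RNA of dendritic cells (DC), which take up antigen and present it to T cells, in 1 library of immature and 1 library of mature cells. Both were grown from C57BL/6 mouse bone marrow for 6 days with GM-CSF (10 ng/ml) and IL-4 (1 ng/ml), cytokines that drive marrow precursors towards a dendritic cell fate. The mature cells had then received lipopolysaccharide (LPS, a component of the outer membrane of Gram-negative bacteria) at 100 ng/ml for 24 h, if the second sample of the protocol is the mature library, as read here. Whether the immature cells stayed in culture for that time is not given, and neither are the gates of the flow cytometry sort on CD86 and I-Ab that both went through, nor how many animals gave the marrow. With 1 library of each state there is no replicate error and no test between the states, so every difference below is between these 2 libraries.

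Levels are given as RPKM, the uniquely placed reads of a gene per 1000 bases of its gene model and per 1000000 reads counted to genes. Beside a ratio of mature to immature RPKM stands its exact 95% interval (Clopper-Pearson, on how the reads of the gene split between the libraries). This interval covers counting error only, because each state has 1 library. The reads carry no molecular identifiers and may repeat a molecule, so it may understate that error. The threshold for a difference was 2-fold on the log2(RPKM + 1) scale, and it was applied to the 11547 genes that reached 1 RPKM in either library. That scale understates the change of low genes. All 77 genes passed this filter in both libraries, the lowest value being 2.76 RPKM.

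Mitochondria make a small set of respiratory chain subunits on ribosomes of their own. The RNA of these ribosomes is encoded in mitochondrial DNA, while all of their proteins are encoded in the nucleus, made in the cytosol and imported. A large subunit joins amino acids and a small subunit reads the messenger RNA. Part of the proteins descend from those of bacterial ribosomes, and many of these keep their numbers. Others are particular to mitochondria. Dendritic cells that respond to LPS are known to shift from respiration towards glycolysis.

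The genes were lower in the mature library as a group, by a small amount. The median log2 fold of mature over immature was -0.39 over the 77 genes, a level 1.31-fold lower, against 0.03 over all genes tested. RPKM was lower in the mature library for 59 of the 77, or 76.6%, against 48.4% of all genes tested. Few moved far: 2 of 77 were at least 2-fold lower, Mrpl18 and Mrps28, against 11.3% of all genes tested, and 1 of 77 was at least 2-fold higher, Mrps6, against 9.05%. The counting interval lay wholly below 1 for 49 of 77 genes (63.6%), against 33.8% of all genes tested, and wholly above 1 for 9 genes (11.7%), against 36.1%. It held 1 for the other 19 genes. The middle 50% of the genes spanned 0.48 on the log2 scale, against 0.98 over all genes tested, so the values were packed more closely around a lower centre. All genes tested include more genes with few reads, with a 25th percentile of 68 immature reads against 150 for the 77 genes. The spread was not compared with that of genes of like reads. The split of genes at least 2-fold apart was 4 lower and 1 higher when the libraries were centred on their median ratio, against 11.8% and 8.38% of all genes tested. It was 1 and 1 under both rescalings to a common sum of RPKM, where 9.83% to 10.2% of all genes were lower and 10.3% to 10.8% higher.

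**Figure D1:**
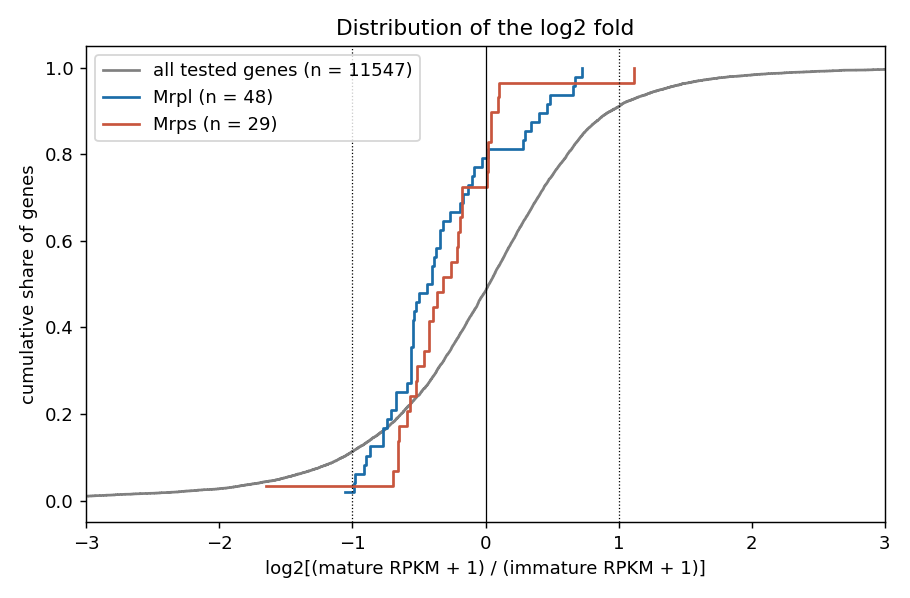
Cumulative share of genes (vertical axis) at or below each log2 fold of mature over immature RPKM, with 1 RPKM added to both (horizontal axis), for all 11547 genes tested, the 48 Mrpl and the 29 Mrps genes. Dotted lines mark 2-fold; both gene groups lie left of all genes in the middle of the range, and nearly all of their steps fall between the dotted lines.

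The libraries held 7.56 M (immature) and 8.07 M (mature) reads counted to genes, of which the 77 genes took 18953 and 16259. This is 0.251% of counted reads (Wilson 95% interval 0.247 to 0.254) in the immature and 0.201% (0.198 to 0.205) in the mature library, a ratio of 0.804 (0.787 to 0.821). Both subunits gave nearly the same figure. The large subunit genes took 0.164% and 0.132% of the reads, a ratio of 0.805 (0.784 to 0.826), and the small subunit genes 0.0868% and 0.0696%, a ratio of 0.802 (0.774 to 0.831). By summed RPKM the ratio was 0.789 for Mrpl, from 1509 to 1191, and 0.809 for Mrps, from 797 to 645. By the middle gene, Mrpl stood at a median log2 fold of -0.42 with 38 of 48 lower, and Mrps at -0.32 with 21 of 29 lower. The subunits differed in their upper tails: 8 Mrpl genes had an interval wholly above 1, and among Mrps genes this was Mrps6 alone. The difference between the subunits was not tested.

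Gene length moved with the fold over the whole table, and these genes are short. Over all genes tested, the median log2 fold was -0.31 in the shortest decile of gene models (75 to 992 bases) and -0.17 in the next decile (994 to 1444 bases), and it was 0.24 in the longest decile. Of the 77 genes, 33 lay in the shortest decile, with a median of -0.40, and 20 in the next, with a median of -0.37. Within the 77 genes length and fold did not move together. The Pearson correlation of log2 length and log2 fold was -0.016 there. With the median of the gene's length decile subtracted, the median of the 77 genes was -0.19, with 53 below 0, against 49.98% of all genes tested. The part of the length trend in the lower level was not tested beyond this subtraction. Scaling had less effect: the rescaling to a common sum that leaves out the 50 most abundant genes moved the median of all genes from 0.03 to 0.13, and that of the 77 genes relative to all genes was -0.41, against -0.42 on the deposited scale. The number of the 77 with a log2 fold below 0 was 56 under that rescaling, against 43.1% of all genes tested, and 63 after median-centring, against 50.1%, so genes with a ratio near 1 have no fixed direction.

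**Figure D2:**
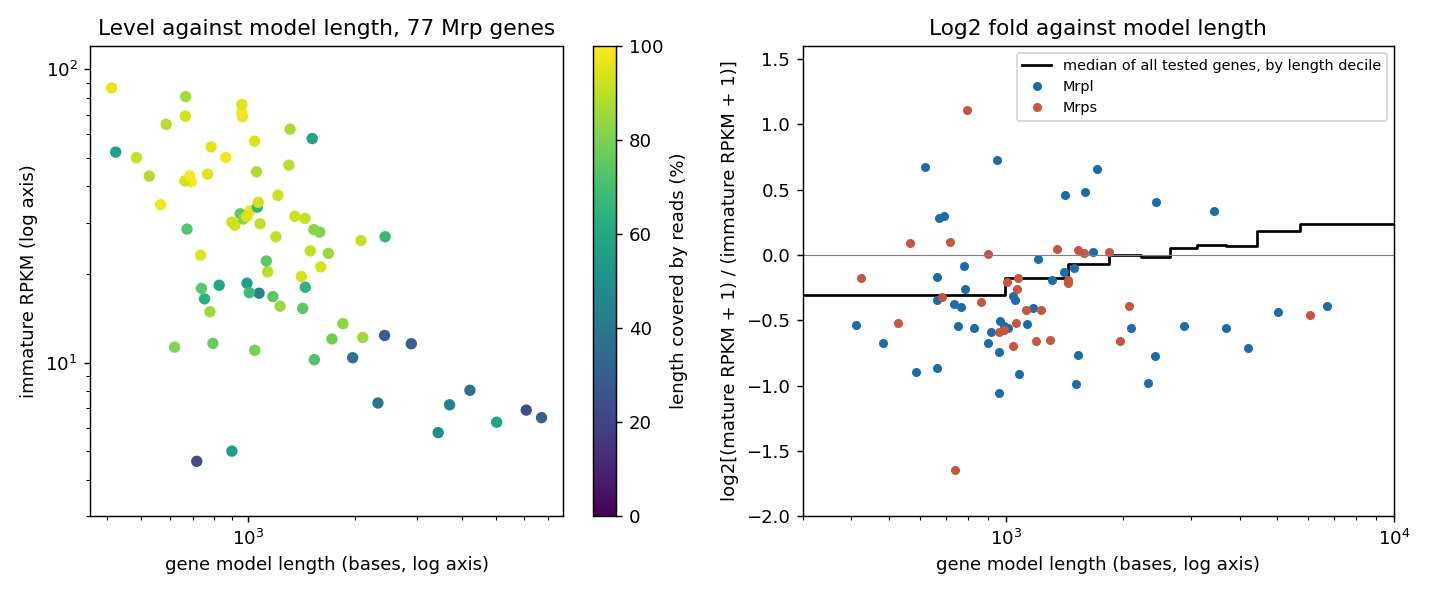
Left, immature RPKM against gene model length for the 77 genes (both axes logarithmic), coloured by the percent of the model covered by reads; most genes with models over 2000 bases are low and poorly covered. Right, log2 fold against model length for Mrpl and Mrps genes, with the median of all genes tested in each decile of length as a black step line, which climbs from -0.31 to 0.24.

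Other cell states in the culture changed between the libraries as well. The 8 markers of cycling cells were all at least 2-fold lower in the mature library, from a summed 448 to 21.5 RPKM, and so were the 8 markers of neutrophils and their precursors, from 3305 to 350 RPKM. Of 6 macrophage and monocyte markers 5 were lower, 2 of them at least 2-fold, and their sum was 9247 and 1988 RPKM. All 8 DC markers had reads in both libraries, with a sum of 8058 and 6043 RPKM; 5 were higher, 4 of them at least 2-fold, and 3 were lower, 1 of them at least 2-fold. Cd86, among the higher, encodes a protein the sort used. The genes of the I-Ab chains, the other protein of the sort, did not rise alike. H2-Ab1 stood at 1256 and 978 RPKM (0.779, 0.758 to 0.800) and H2-Aa at 1159 and 1260 RPKM (1.09, 1.06 to 1.12). Markers of B, T and NK cells, erythroid cells, mast cells and basophils summed to at most 6.17 RPKM per type; among these markers, Hba-a1 and Ms4a2 had no row, Klrb1c had 0 reads in the mature and Cd4 and Ncr1 had 0 reads in the immature library. In bulk RNA, fewer cells of a type and less RNA per cell cannot be told apart, and the part of any of these cells in the lower mitoribosome level was not tested.

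The genes at least 2-fold apart were Mrps28 and Mrps6, named for the small subunit, and Mrpl18, named for the large subunit. Mrps28 (Entrez Gene 66230), a small subunit protein, stood at 17.9 RPKM in immature and at 5.04 RPKM in mature cells, on 100 and 30 reads. Its ratio was 0.281 (0.180 to 0.426), and it was the sole gene of the 77 whose interval lay wholly beyond 2-fold. Mrpl18 (67681), a protein of the central protuberance, the crown of the large subunit where bacteria hold their 5S RNA, stood at 71.3 and 33.8 RPKM on 517 and 262 reads. Its ratio was 0.475 (0.408 to 0.552), and after either rescaling to a common sum it was no longer 2-fold apart. Mrps6 (121022), the homolog of bacterial S6 on the platform of the small subunit, stood at 11.6 and 26.3 RPKM on 70 and 169 reads. Its ratio was 2.26 (1.70 to 3.03), and with 5 RPKM added in place of 1 it did not reach 2-fold. In the GENCODE M21 annotation 36.1% of the exon bases of Mrps6 also belong to the gene model Gm49711, for which no level was at hand, and 18.8% to the transporter gene Slc5a3, both on the same strand. Slc5a3 had 0.448 and 1.45 RPKM, far below Mrps6, and how reads in shared bases were assigned is not given in the sources used here.

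A pair of genes stood just short of the threshold. Mrpl51 (66493) had 58 RPKM in immature and 28.8 RPKM in mature cells, a ratio of 0.496 (0.435 to 0.565). Mrpl57 (67840) had 7.29 and 3.20 RPKM, a ratio of 0.439 (0.318 to 0.601), so its plain ratio was lower than that of Mrpl18, while the added 1 RPKM put it within 2-fold. Next came Mrpl28 at 29.7 and 15.4 RPKM (ratio 0.517, 0.415 to 0.641), Mrpl54 at 64.9 and 34.4 RPKM (0.530, 0.435 to 0.645) and Mrpl20 at 69.2 and 37.4 RPKM (0.541, 0.453 to 0.646). At a threshold of 1.5-fold in place of 2-fold, 19 of the 77 genes were lower, against 21.7% of all genes tested, and 4 were higher, against 21.4%. The 19 are 24.7%, close to the share over all genes.

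**Figure D3:**
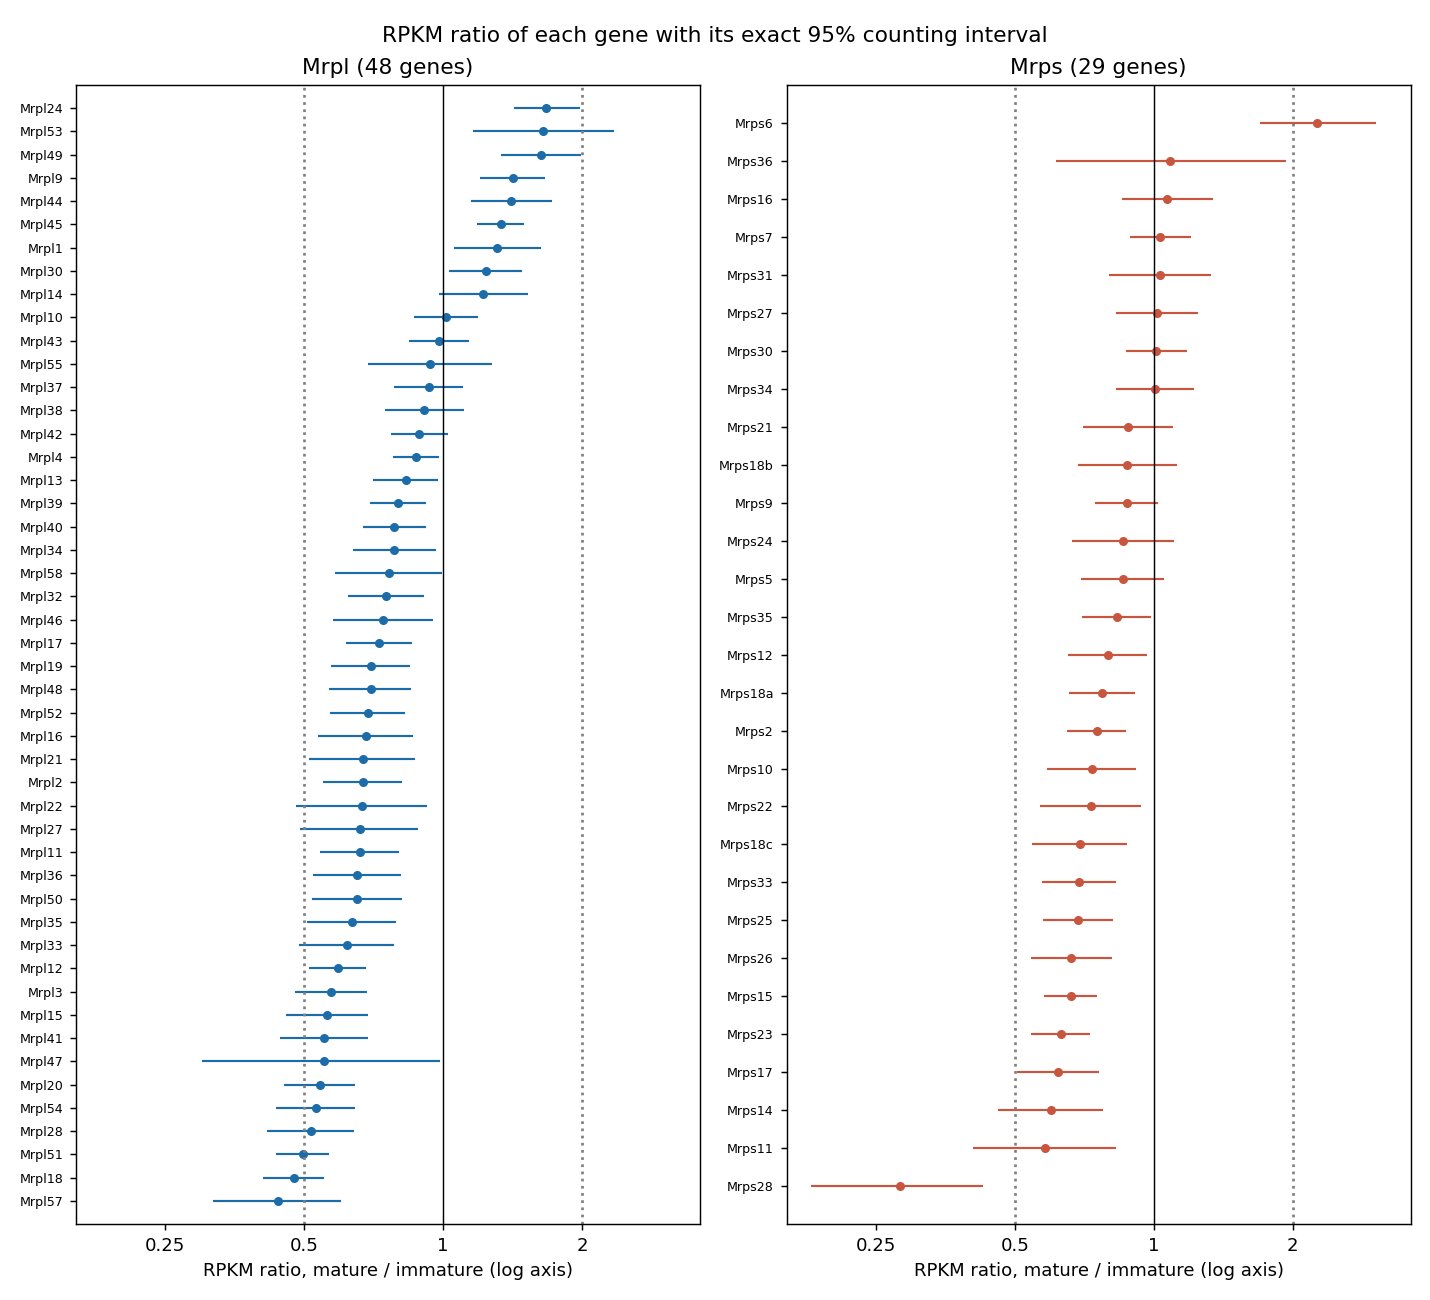
Ratio of mature to immature RPKM (logarithmic axis) of each of the 48 Mrpl and 29 Mrps genes, in order of the ratio, with exact 95% counting intervals as bars. The solid line marks 1 and the dotted lines 2-fold; Mrps28 at 0.281 and Mrps6 at 2.26 are the ends of the range, and most genes lie between 0.5 and 1.

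By place in the large subunit, the proteins around the exit of the peptide tunnel were split. The other groups leaned lower, as did the Mrpl genes as a whole, of which 79.2% were lower. The groups are small, and no group was tested against that share. Of 6 measured tunnel exit genes, 3 were lower. Mrpl45, which ties the ribosome to the inner membrane where its products are inserted, stood at 26.9 and 35.8 RPKM, a ratio of 1.33 (1.19 to 1.5). Mrpl44, which has a fold related to ribonuclease III, stood at 15.3 and 21.5 RPKM, a ratio of 1.40 (1.15 to 1.72). Mrpl24 stood at 32.2 and 53.9 RPKM, a ratio of 1.67 (1.42 to 1.98), the highest of the large subunit. In GENCODE, 38.2% of the exon bases of Mrpl24 lie opposite exons of Rrnad1, which had 2.97 and 4.35 RPKM. The other side of the group was Mrpl39 at 56.8 and 45.4 RPKM (0.799, 0.695 to 0.918), Mrpl22 at 16.5 and 11 RPKM (0.668, 0.481 to 0.923) and Mrpl17 at 6.50 and 4.72 RPKM (0.727, 0.615 to 0.858). Insertion itself is served by Oxa1l, the insertase that the ribosome docks to, at 18.3 and 24.8 RPKM, a ratio of 1.35 (1.18 to 1.55).

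All 6 genes of the central protuberance were lower, with a median log2 fold of -0.45, against 79.2% and -0.42 over all Mrpl genes. Besides Mrpl18 the genes of the protuberance were Mrpl27 (18.4 and 12.1 RPKM, ratio 0.660), Mrpl48 (30.9 and 21.5 RPKM, 0.696), Mrpl46 (16.8 and 12.5 RPKM, 0.742), Mrpl40 (44.7 and 35.1 RPKM, 0.785) and Mrpl38 (19.7 and 17.9 RPKM, 0.910), of which the last had an interval that held 1 (0.747 to 1.11). All 4 proteins of the core near the peptidyl transferase centre, where peptide bonds are made, were lower too, with intervals below 1: Mrpl3 at 28.4 and 16.3 RPKM (0.572), Mrpl2 at 32.9 and 22 RPKM (0.669), Mrpl16 at 20.4 and 13.9 RPKM (0.680) and Mrpl4 at 62.5 and 54.5 RPKM (0.872). In the stalk that recruits translation factors, Mrpl12, which also binds the mitochondrial RNA polymerase, stood at 68.9 and 40.8 RPKM (0.592, 0.512 to 0.682) and Mrpl11 at 11.6 and 7.65 RPKM (0.659, 0.541 to 0.802). Mrpl10, which carries the copies of Mrpl12 on the particle, did not go with them, at 23.6 and 23.9 RPKM (1.01, 0.865 to 1.19). The remaining large subunit genes with an interval above 1 were Mrpl49 (12.1 and 19.6 RPKM, ratio 1.63), Mrpl53 (11.3 and 18.6 RPKM, 1.64), Mrpl9 (21.2 and 30 RPKM, 1.41), Mrpl1 (5.78 and 7.58 RPKM, 1.31) and Mrpl30 (41.3 and 51.1 RPKM, 1.24). All exon bases of Mrpl53 also belong to the gene model Gm42688 on the same strand in GENCODE. Exons of 17 of the 77 genes overlapped those of another gene there, in 9 of them over at least 10% of their bases, and reads in such bases cannot be assigned to a strand here.

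In the small subunit, Mrps12, the protein of the decoding centre where codon and anticodon are matched, stood at 43.3 and 34.4 RPKM (0.795, 0.651 to 0.968). Of the proteins along the path of the messenger RNA, Mrps11 had 11 and 6.41 RPKM (0.581, 0.406 to 0.826), Mrps5 18.1 and 15.5 RPKM (0.856, 0.696 to 1.05) and Mrps7 31.5 and 32.6 RPKM (1.03, 0.886 to 1.2). Thus 1 of the 3 had an interval clear of 1. Mrps15, the most abundant small subunit gene at 75.8 RPKM in the immature library, had 50.1 RPKM in the mature one (0.661, 0.579 to 0.754). Mammals have 3 proteins of the S18 family, and their genes were lower by different amounts: Mrps18a at 50 and 38.7 RPKM (0.774, 0.656 to 0.912), Mrps18c at 43.2 and 29.9 RPKM (0.692, 0.546 to 0.875) and Mrps18b at 17.3 and 15.1 RPKM (0.877, 0.685 to 1.12). The 3 intervals overlapped each other. Apart from Mrps6, the small subunit genes above 1 lay between 1.01 and 1.09 with intervals that held 1: Mrps34, Mrps30, Mrps27, Mrps31, Mrps7, Mrps16 and Mrps36.

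Some symbols place a protein by an older view. Mrps30 and Mrps18a encode proteins that later structures put in the large subunit; with both moved, the medians were -0.40 for the large and -0.32 for the small subunit. Mrps36, now known as a part of the 2-oxoglutarate dehydrogenase complex of the citric acid cycle, had 25 and 29 reads, 4.62 and 5.02 RPKM, over 24% and 28.6% of its model. It has 3 pseudogenes in the reference, and its value from uniquely placed reads is uncertain. Mrpl58, a peptidyl-tRNA hydrolase that became part of the ribosome, stood at 23.2 and 17.7 RPKM (0.763, 0.584 to 0.994). Split by symbol number, 44 genes carried bacterial numbers (up to 36 in the large and 21 in the small subunit, and Mrps24). Their median log2 fold was -0.41, with 35 lower. The 33 genes with later numbers had a median of -0.34, with 24 lower. The split rests on the number alone, and descent was not examined.

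The levels of the genes within a library ranged widely per length and less so in reads. In the immature library reads per gene went from 25 to 665 with a median of 226, gene model lengths from 412 to 6712 bases with a median of 1061, and RPKM from 4.62 to 86.3 with a median of 26.9. In the mature library reads went from 20 to 703 (median 181) and RPKM from 2.76 to 71.6 (median 21.5). The medians of the subunits were close: 25.5 RPKM for Mrpl and 26.9 for Mrps in the immature, and 21.5 and 20.9 in the mature library. From the gene at the 10th to that at the 90th percentile, immature reads differed 3.90-fold and immature RPKM 7.72-fold. The highest by mean over the libraries were Mrpl42 (80.6 and 71.6 RPKM), Mrpl52 (86.3 and 59.2), Mrps15, Mrpl4 and Mrpl12. The lowest were Mrpl47 (5.0 and 2.76 RPKM), Mrps36, Mrpl57, Mrpl19 (6.27 and 4.37) and Mrpl17.

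Low RPKM went with long gene models that reads covered in part. Across the 77 genes, log2 length and log2 immature RPKM had a Pearson correlation of -0.60, while log2 length and log2 reads had 0.23. With immature reads per covered base in place of RPKM the correlation was -0.44. RPKM is divided by model length, and the part of this division in the correlation was not tested. Genes are not independent replicates. The 12 genes with models of at least 2000 bases had a median of 245.5 immature reads, against 216 for the other 65, but a median of 7.68 RPKM against 29.7, and 41.8% of the model covered against 87.6%. Mrpl17 had 330 immature reads, more than the median gene, yet stood at 6.50 RPKM over a model of 6712 bases, of which 32% was covered. Mrps25 had 317 reads over 24.7% of 6076 bases, and 58.2% of its exon bases lie opposite those of Nr2c2 in GENCODE. Over covered bases alone the spread of the immature library from the 10th to the 90th percentile was 4.70-fold in place of 7.72-fold. Each of the 77 genes has the same length in both files, so length cancels from its ratio. The 10 genes covered over less than 50% of their model in both libraries (Mrpl11, Mrpl15, Mrpl17, Mrpl35, Mrpl41, Mrpl57, Mrps14, Mrps18b, Mrps25 and Mrps36) had a median log2 fold of -0.55. Of those not yet described, Mrpl15 stood at 8.06 and 4.52 RPKM (ratio 0.561), Mrpl35 at 7.19 and 4.56 RPKM (0.634) and Mrpl41 at 12.4 and 6.85 RPKM (0.553), and Mrps14 at 10.4 and 6.22 RPKM (0.598).

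**Figure D4:**
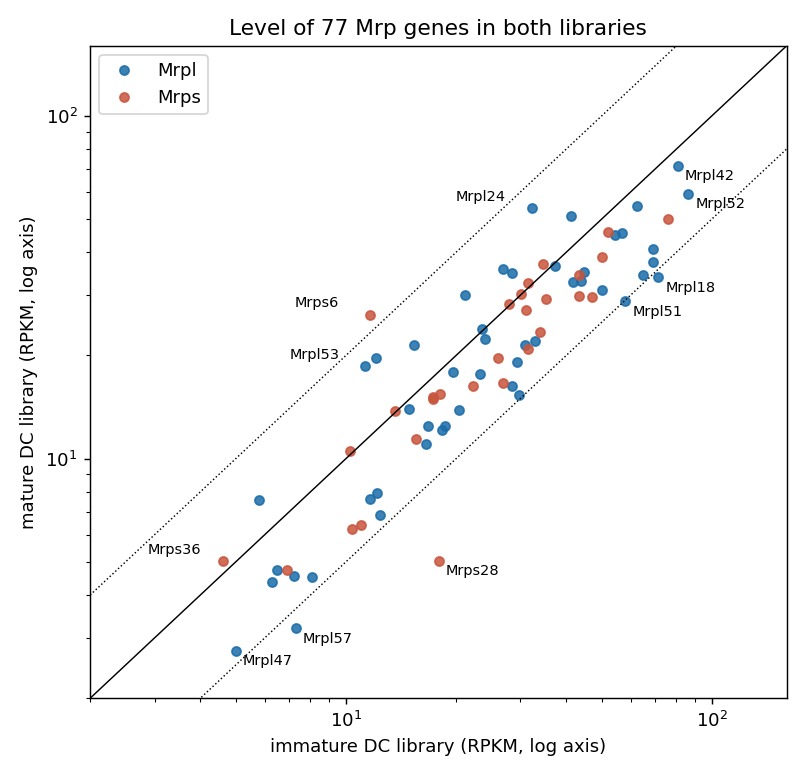
RPKM in the mature against the immature library for each Mrpl and Mrps gene (both axes logarithmic). The solid line marks equal levels and the dotted lines 2-fold; most points lie just under the solid line, with Mrps28 far below it and Mrps6 above the upper dotted line.

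Promoters were compared since most of these genes were lower together. RefSeq windows of GRCm38.p6, from 250 bases before to 50 after each start, were at hand for 68 of the 77 genes. The letters searched, on both strands, were CCGGAAG (bound by ETS factors such as GABP), GCGCATGC (the core of the NRF-1 motif) and AAGATGGCG (YY1). Matches of different motifs did not overlap, while the NRF-1 letters overlapped a match of their own on the other strand in Mrpl9, Mrpl32 and Mrpl39. GABP, NRF-1 and YY1 are known regulators of nuclear genes for mitochondria. The ETS letters stood in 38.2% of the 68 genes, against 21.7% of the genes tested that have a window and 12.9% of all protein-coding genes with a window. The NRF-1 letters stood in 11.8%, against 6.26% and 3.93%, and the YY1 letters in 11.8%, against 3.89% and 2.14%. At least 1 of the 3 was found in 36 of the 68 genes (52.9%), against 29.1% of tested genes. CACGTG, the E-box of Myc and USF, was in 7.35%, against 12.1% of tested genes, CCAAT in 39.7% against 43.1%, and TATAAA in 7.35% against 8.33%. The median log2 fold was -0.51 with the ETS letters and -0.33 without, -0.35 and -0.41 for NRF-1, and -0.28 and -0.40 for YY1. A match is a description of letters and not a site in use.

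Shown here, to let the motifs be seen where they lie, are the last 150 bases before and the first 30 after the start of 4 genes with a pair of motifs, 5′ to 3′ along the gene, with motif letters in capitals. Mrpl22 and Mrpl33 hold the ETS and NRF-1 letters, and Mrps18a and Mrps27 the ETS letters before the start and the YY1 letters after it.
Mrpl22, chr11:58171514-58171693, plus strand: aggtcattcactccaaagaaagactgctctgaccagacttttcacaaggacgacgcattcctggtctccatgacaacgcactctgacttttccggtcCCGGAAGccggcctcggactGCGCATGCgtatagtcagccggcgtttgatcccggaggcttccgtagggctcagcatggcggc
Mrpl33, chr5:31613801-31613980, plus strand: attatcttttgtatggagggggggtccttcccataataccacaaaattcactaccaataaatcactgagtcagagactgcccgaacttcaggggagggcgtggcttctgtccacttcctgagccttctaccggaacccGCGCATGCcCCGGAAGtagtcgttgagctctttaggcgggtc
Mrps18a, chr17:46110854-46111033, plus strand: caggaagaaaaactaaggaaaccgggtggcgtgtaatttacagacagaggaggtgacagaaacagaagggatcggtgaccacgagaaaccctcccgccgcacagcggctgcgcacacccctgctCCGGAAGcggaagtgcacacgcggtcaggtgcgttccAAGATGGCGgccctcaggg
Mrps27, chr13:99344636-99344815, plus strand: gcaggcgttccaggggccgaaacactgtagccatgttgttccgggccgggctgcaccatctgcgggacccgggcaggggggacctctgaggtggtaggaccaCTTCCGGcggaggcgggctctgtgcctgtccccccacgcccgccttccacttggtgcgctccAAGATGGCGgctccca
In the windows of all 68 genes, 6 of 8 YY1 matches began after the start, and 17 of 31 ETS matches began in the last 60 bases before it. Positions were not taken for the windows of other genes, so these counts have no share over all genes beside them.

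The next 4 windows belong to genes at or near 2-fold, shown in the same way. Mrpl51 and Mrpl57 each hold the ETS letters in this stretch, before and just after the start; Mrpl18 holds them farther upstream, outside it; and none of the 3 motifs was found for Mrps6. Mrps28 had no entry in the table.
Mrpl18, chr17:12916062-12916241, minus strand: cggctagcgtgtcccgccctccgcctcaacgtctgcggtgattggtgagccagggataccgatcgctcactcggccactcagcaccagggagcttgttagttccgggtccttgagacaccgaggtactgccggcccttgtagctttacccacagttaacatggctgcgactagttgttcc
Mrpl51, chr6:125192050-125192229, plus strand: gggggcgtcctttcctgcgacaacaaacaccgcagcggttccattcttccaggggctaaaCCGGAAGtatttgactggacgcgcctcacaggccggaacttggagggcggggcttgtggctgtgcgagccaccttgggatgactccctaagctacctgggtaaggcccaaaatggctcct
Mrpl57, chr14:57826089-57826268, plus strand: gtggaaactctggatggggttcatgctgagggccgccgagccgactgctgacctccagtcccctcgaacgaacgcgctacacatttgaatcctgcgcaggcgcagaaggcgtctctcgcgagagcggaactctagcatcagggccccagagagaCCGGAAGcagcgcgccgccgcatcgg
Mrps6, chr16:92058186-92058365, plus strand: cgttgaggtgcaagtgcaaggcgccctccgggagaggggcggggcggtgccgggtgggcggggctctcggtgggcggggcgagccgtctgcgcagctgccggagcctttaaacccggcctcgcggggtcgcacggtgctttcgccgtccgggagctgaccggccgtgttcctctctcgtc

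The genes of regulators were mostly within 2-fold, with a median log2 fold of -0.25 over the 10 tested and 6 of them below 0. Of 10 tested genes that regulate nuclear genes for mitochondria, 1 was at least 2-fold lower, close to the 11.3% of all genes tested. It was Myc, a driver of growth and of ribosome production, at 25.7 and 2.27 RPKM, a ratio of 0.0885 (0.0634 to 0.121). Gabpa, the DNA-binding subunit of GABP, stood at 23.5 and 18 RPKM (0.768, 0.695 to 0.848), Nrf1 at 11.5 and 15.1 RPKM (1.31, 1.13 to 1.52) and Yy1 at 29.5 and 35.8 RPKM (1.22, 1.08 to 1.37). Esrra, an estrogen-related receptor of respiratory genes, stood at 17.9 and 16.2 RPKM (0.903, 0.767 to 1.06). Nrf1 is named for its motif, outside the rule on size and abundance. Whether any of these bears on the mitoribosome genes was not tested.

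Several of the genes share a start region with a gene on the other strand. In GENCODE M21, 18 of the 77 (23.4%) had the start of another protein-coding gene within 1000 bases upstream, head to head, against 10.9% of the genes tested. This comparison was added after the values were seen. The 16 partners that reached 1 RPKM had a median log2 fold of -0.08, against -0.37 for their Mrp genes, and 9 of the 16 pairs had the same sign. Mrpl51 and Mrpl57 were the pair of Mrp genes whose partners were far lower. Ncapd2, a condensin subunit of mitotic chromosomes next to Mrpl51, went from 42.5 to 4.87 RPKM, a ratio of 0.115 (0.0975 to 0.134). Ska3, a protein of the spindle and kinetochore next to Mrpl57, went from 8.42 to 1.26 RPKM, a ratio of 0.150 (0.0919 to 0.233). Other partners went against their gene: Apba3, next to Mrpl54, had 10.9 and 17.4 RPKM (1.6, 1.32 to 1.94), and Ppp1r10, next to Mrps18b, 10.1 and 18.3 RPKM (1.82, 1.59 to 2.09). Psma2, a proteasome subunit, and its neighbour Mrpl32 were lower side by side, at 136 and 90.3 RPKM and at 43.9 and 33.1 RPKM.

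The other lists of the mitochondrial translation system had medians nearer to 0 than that of the 77 genes. Their gene models were also longer. Median lengths were 1734 bases for mitoribosome proteins with other symbols, 1849 for assembly, 2146.5 for translation factors and 3075 for tRNA synthetases, against 1061 for the 77 genes. The medians of the lists were not adjusted for length. With the length trend removed, that of the 77 genes was -0.19. The 5 mitoribosome proteins with other symbols (Dap3, Ptcd3, Gadd45gip1, Chchd1 and Aurkaip1) were all within 2-fold, with a median log2 fold of -0.15; Aurkaip1, of the small subunit, stood at 76.2 and 68.7 RPKM and Ptcd3 at 24.6 and 19.5 RPKM. Of 26 genes for assembly and rRNA modification, 0 were at least 2-fold lower and 1 at least 2-fold higher, against 11.3% and 9.05% of all genes tested. The median of the 26 was -0.08, with 14 below 0. The 26 include Dimt1, at 4.94 and 4.57 RPKM, whose place in mitochondria was not examined. The gene at least 2-fold higher was Mrm1, a methyltransferase of the large rRNA, at 4.51 and 12.8 RPKM, a ratio of 2.83 (2.21 to 3.66). Malsu1, an assembly factor of the large subunit, stood at 15 and 27.9 RPKM (1.86, 1.44 to 2.43) and Rbfa, of the small subunit, at 33 and 30.4 RPKM (0.920, 0.789 to 1.07).

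None of 18 translation factor genes was 2-fold apart, with a median of -0.16. For this and the next lists, the shares over all genes tested were 11.3% lower and 9.05% higher. The elongation factor gene Gfm1 stood at 36.9 and 27.3 RPKM (0.738, 0.660 to 0.825), and Slirp, which stabilises mitochondrial messenger RNA, at 38.4 and 27.6 RPKM (0.718, 0.544 to 0.945). A pair of genes named after their values were seen had plain ratios beyond 2-fold in opposite directions that were under 2-fold with 1 RPKM added. The initiation factor gene Mtif3 stood at 6.52 and 13.8 RPKM (2.12, 1.66 to 2.71), and the elongation factor gene Tsfm at 9.30 and 4.20 RPKM (0.451, 0.302 to 0.666). None of 17 mitochondrial tRNA synthetase genes was 2-fold apart with 1 RPKM added, with a median of 0.07 and 6 of 17 lower. Mars2 and Pars2, also named after their values were seen, had plain ratios beyond 2-fold in opposite directions. Mars2 stood at 1.84 and 0.602 RPKM (0.328, 0.165 to 0.616) and Pars2 at 1.07 and 2.50 RPKM (2.32, 1.44 to 3.86). Rars2, the most abundant, stood at 19.4 and 17.8 RPKM (0.916, 0.772 to 1.09). None of 11 genes for mitochondrial DNA and its transcription was apart either, with a median of -0.02. Among them Lonp1, a protease of the matrix, stood at 45.1 and 50 RPKM and Ssbp1, the single-stranded DNA binding protein, at 18.6 and 10.7 RPKM (0.575, 0.459 to 0.720). The protein import genes, which bring the ribosomal proteins into mitochondria, had 0 of 21 apart with 1 RPKM added and a median of -0.31. By plain ratio Timm10b, named after its values were seen, was beyond 2-fold, at 18.3 and 8.68 RPKM (0.475, 0.352 to 0.637). Tomm22, a receptor of the outer membrane, stood at 63.8 and 44.1 RPKM (0.692, 0.603 to 0.794) and the small chaperone gene Timm8b at 55.9 and 87.2 RPKM (1.56, 1.32 to 1.85).

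Subunits of the respiratory chain, the users of what mitochondrial ribosomes make, were lower by more. The 77 tested included 17 at least 2-fold lower and 1 at least 2-fold higher, against 11.3% and 9.05% of all genes tested. The median log2 fold of these 77 was -0.62, and their RPKM summed to 7917 and 5350. Atp5g3, of the ATP synthase ring, stood at 185 and 55.3 RPKM (0.298, 0.261 to 0.340), and Ndufb2, of complex I, at 35.2 and 10.9 RPKM (0.310, 0.211 to 0.446). The abundant Atp5b stood at 571 and 384 RPKM (0.672, 0.650 to 0.695). Of 66 cytosolic ribosomal protein genes, 12 were at least 2-fold lower and 1 at least 2-fold higher, beside the same shares of all genes. The median of the 66 was -0.55, with 61 below 0. Many of them have pseudogenes, and reads covered a median of 45.1% of their models in the immature library, so single values are uncertain; Rpl13a, covered over 97.6%, stood at 747 and 591 RPKM (0.791, 0.758 to 0.826). Both lists hold short genes, with median lengths of 657 and 705.5 bases against 2654 over all genes tested. None of the differences between lists was tested.

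**Figure D5:**
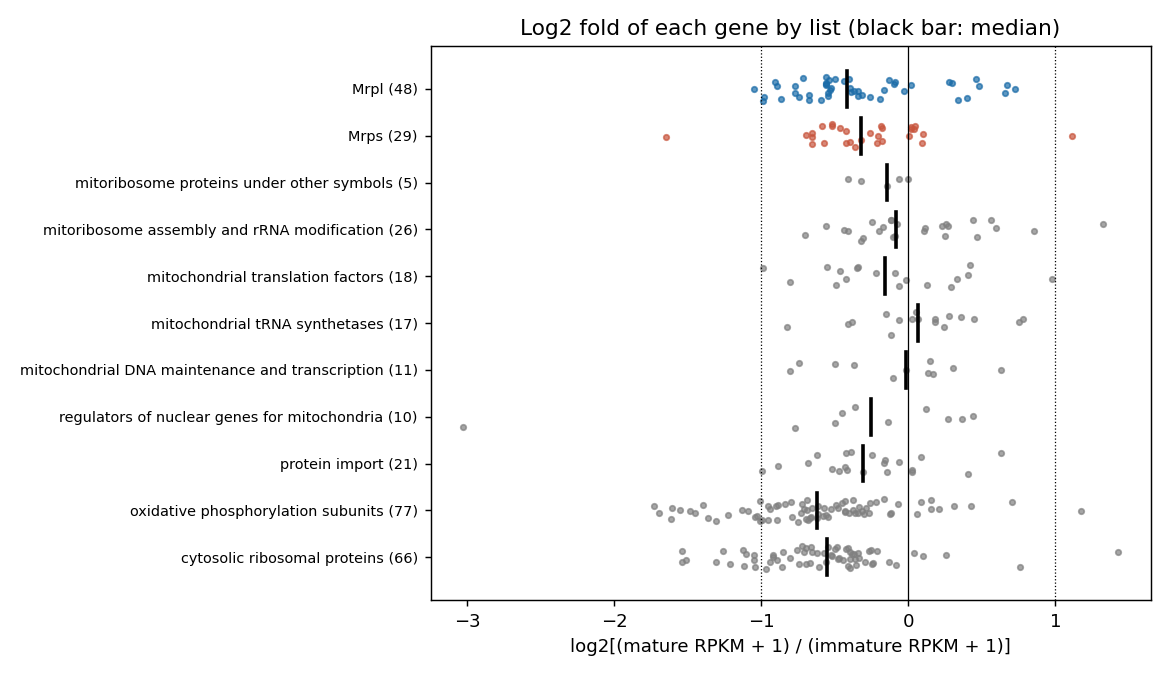
Log2 fold of mature over immature RPKM, with 1 RPKM added to both, of each gene (points) in the Mrpl and Mrps groups and 9 lists of related genes, with the number of genes tested in brackets and medians as black bars. Dotted lines mark 2-fold; the medians run from -0.62 for respiratory chain subunits to 0.07 for mitochondrial tRNA synthetases.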

How the data were processed

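RNA of 1 immature and 1 mature dendritic cell library was analysed. Per the file headers, the deposited files give the counts of uniquely placed reads per gene, unnormalised, the gene model length, the percent of that length covered, and RPKM made by the authors. The counts sum to the header totals of 7563533 (immature) and 8073541 (mature) reads, and reads per 1000 bases and per 1000000 reads returned every deposited RPKM within a relative deviation of 1.07e-07. The build is mm8 per the submitters' processing notes; the sources used here name no aligner, counter, strand setting or annotation. A gene missing from 1 file was taken as 0 reads there.

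Symbols came from the RefSeq table of GRCm38.p6 (16220 of 18090 IDs), promoter windows from RefSeq, and neighbours from GENCODE M21; coordinates are those of GRCm38.p6. Log2 folds add 1 RPKM and cover genes that reach 1 RPKM in either library. Steps were run in Python 3.11.15 with scipy 1.17.1 and tested on simulated data. The members and lists were chosen with earlier results of these data known. Named in full were genes at least 2-fold apart, the 5 highest and 5 lowest levels, the structural groups, members covered under 50%, and from each other list examples of the genes 2-fold apart (up to 4 by size) and the 3 most abundant. Alternatives changed the pseudocount, filter, scaling, threshold, coverage, length trend and subunit of Mrps30 and Mrps18a. Protein sequences were not used here, and single values of a few marker and list genes are not reported here.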

Additional observations from a re-analysis of the deposited data

How the results depend on the processing

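No paired analysis was possible because each state has 1 library, and for the same reason no replicate could be left out. The count of genes at least 2-fold lower, 2 of 77 as reported, was 4 with 0.1 RPKM added and 4 after median-centring, in both cases with Mrpl51 and Mrpl57, against 14.4% and 11.8% of all genes tested. It was 1 (Mrps28) with 5 RPKM added, after both rescalings, with the length trend removed and when the counting interval had to lie wholly beyond 2-fold, settings that called 5.94% to 10.8% of all genes lower. It was 19 at 1.5-fold, against 21.7%. The count of higher genes, 1 as reported, was 0 with 5 RPKM added (all genes 4.06%) and by the interval (7.23%), 2 with the length trend removed, Mrpl24 and Mrps6 (8.72%), and 4 at 1.5-fold (21.4%). With the length trend removed the median log2 folds were -0.19 for the 77 genes, -0.23 for Mrpl and -0.12 for Mrps genes. Under the other settings that give a median, that of the 77 genes lay between -0.43 and -0.29. The summed RPKM ratios were 0.838 (Mrpl) and 0.859 (Mrps) after rescaling to a common sum, and 0.854 and 0.876 without the 50 most abundant genes in the sum. Of the folds of single genes, 21 of 77 moved beyond their counting interval with the length trend removed and 2 with 5 RPKM added. Every median and summed ratio kept its direction under the settings run. At 3 reads, a gene of 1000 bases stood at 0.397 and 0.372 RPKM; the interval of Mrps36, the gene with the fewest immature reads, ran from 0.614 to 1.93.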
